A study of Mus musculus with 8 samples.

Results

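Open chromatin at 6 loci of blood and blood vessel development was compared between tailbuds of wild-type mouse embryos (WT/WT) and of homozygotes for the Danforth's short tail allele (Sd/Sd). All embryos were of the outbred CD-1 background and embryonic day 9.5. Accessibility was read with ATAC-seq. In this assay the Tn5 transposase cuts and tags DNA that is not wrapped tightly in nucleosomes. Each genotype had 4 libraries, tailbuds were cut off just before the last somite, and 2 mice could be pooled into 1 library where tissue was scarce, so a library, not an embryo, is the unit of replication. The labels do not say which libraries were pooled.

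The loci were chosen by position on the mm9 build as windows around Kdr (76.25 to 76.45 Mb of chromosome 5), Tal1 (114.69 to 114.8 Mb of chromosome 4), Cdh5 (106.57 to 106.7 Mb of chromosome 8) and Etv2 (31.39 to 31.45 Mb of chromosome 7), and around the alpha globin cluster with Hba-a1 (32.1 to 32.23 Mb of chromosome 11) and the beta globin cluster with Hbb-bh1 (110.9 to 111.07 Mb of chromosome 7). They held 27 of the 26620 regions that the authors counted. The rule is position alone, and no level or test decides which regions are members. The question was whether the dissected tissue gave the same share of its open chromatin to blood and vessel loci in both genotypes. In a bulk library, fewer cells of a type and less accessible DNA per cell cannot be told apart.

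As background, endothelial and blood cells of the early mouse embryo share mesodermal progenitors. The ETS factor Etv2 starts that programme, and the basic helix-loop-helix factor Tal1 carries it towards blood. Kdr, the main receptor for vascular endothelial growth factor, marks the progenitors and then the vessels, and Cdh5 (VE-cadherin) joins endothelial cells to one another. Hba-a1 encodes alpha globin and Hbb-bh1 a beta-like globin of the primitive, yolk sac derived red cells that circulate at this stage. Erythroid genes are read by GATA factors, by KLF factors that bind CACCC boxes and by CCAAT-binding proteins, and vascular genes by ETS factors.

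The promoters show these classes of sequence side by side. RefSeq windows (GRCm38.p6) were found for 4 of the 6 genes, and Cdh5 and Hbb-bh1 had none in the table. The embryonic beta-like gene Hbb-y is the next gene after Hbb-bh1 in RefSeq order and is shown with them. Each sequence is the 250 bases before the gene's start, 5′ to 3′ on the gene's strand, and capitals mark matches on either strand to the GATA motif TGATAA or AGATAA, the CACCC box, the CCAAT box, the TATAA box or the ETS core CCGGAA. The positions are chr5:75978456-75978705 (minus strand), chr4:115056176-115056425 (plus, the first of 2 windows in the table), chr7:30635853-30636102 (minus), chr11:32283422-32283671 (plus) and chr7:103853208-103853457 (minus), in a build other than that of the counted regions.
Kdr: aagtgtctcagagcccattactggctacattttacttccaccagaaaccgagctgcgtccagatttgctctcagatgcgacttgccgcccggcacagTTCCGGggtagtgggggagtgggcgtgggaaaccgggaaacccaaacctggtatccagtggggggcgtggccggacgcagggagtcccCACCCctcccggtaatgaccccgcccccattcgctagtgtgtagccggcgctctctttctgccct
Tal1: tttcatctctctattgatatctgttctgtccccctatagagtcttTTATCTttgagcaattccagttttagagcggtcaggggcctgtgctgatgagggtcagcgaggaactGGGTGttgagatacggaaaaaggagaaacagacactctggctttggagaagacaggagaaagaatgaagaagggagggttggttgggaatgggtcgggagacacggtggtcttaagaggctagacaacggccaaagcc
Etv2: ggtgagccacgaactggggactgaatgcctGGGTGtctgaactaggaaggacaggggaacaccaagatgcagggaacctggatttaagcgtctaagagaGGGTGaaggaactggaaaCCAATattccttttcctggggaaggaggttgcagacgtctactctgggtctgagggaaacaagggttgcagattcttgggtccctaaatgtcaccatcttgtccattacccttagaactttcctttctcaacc
Hba-a1: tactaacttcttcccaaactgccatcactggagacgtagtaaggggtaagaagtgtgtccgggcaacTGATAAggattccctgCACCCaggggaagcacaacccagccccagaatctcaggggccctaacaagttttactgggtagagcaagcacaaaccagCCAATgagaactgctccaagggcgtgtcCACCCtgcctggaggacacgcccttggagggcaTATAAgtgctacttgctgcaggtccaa
Hbb-y: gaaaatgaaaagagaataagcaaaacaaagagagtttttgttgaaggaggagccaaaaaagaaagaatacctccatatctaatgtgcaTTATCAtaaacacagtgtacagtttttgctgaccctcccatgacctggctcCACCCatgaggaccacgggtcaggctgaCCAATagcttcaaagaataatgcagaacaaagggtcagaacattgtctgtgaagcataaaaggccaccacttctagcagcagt
Both globin promoters held a GATA match, a CACCC box and a CCAAT box, and that of Hba-a1 also held a TATAA. These matches were not confined to them. A CACCC box was also in the stretches of Kdr, Tal1 and Etv2, a GATA match in that of Tal1 and a CCAAT box in that of Etv2. Of these 5 stretches, that of Kdr alone held the CCGGAA core, and it had 61.6% G and C against 42% in Hbb-y. Among 32851 promoter windows of this length, a GATA match was in 16.6%, CACCC in 52%, CCAAT in 33.8%, TATAA in 22.8% and CCGGAA in 12%. These are letter matches, and no binding was measured.

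The libraries held 2873918 to 4180434 counts over all regions, and libraries of one genotype differed from each other by more than counting noise (chi-square per degree of freedom from 2.19 to 3.25). Each library gave a small part of its counts to the 6 loci, 0.0783 to 0.0858% in the WT libraries and 0.0755 to 0.0799% in those of Sd/Sd. The labelled tissue was checked at 4 genes of the tailbud. The window of Cdx2 held 6 counted regions, that of Tbx6 held 3, that of T (brachyury) held 1 and that of Fgf8 held 0. Summed over its regions, Cdx2 had 159 ± 18.3 CPM in WT and 147.7 ± 12.5 CPM in Sd/Sd, Tbx6 had 83.8 ± 8.04 and 74.4 ± 6.77 CPM, and T had 17.4 ± 2.33 and 20.6 ± 6.74 CPM (SD, n = 4 each), where CPM is a count scaled to a common library total over all regions. The windows of these genes, and of the further genes below, were set from background knowledge of mm9 and not checked against an annotation of that build.

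The loci differed in how much open chromatin they held. Tal1 had 8 regions in 110 kb, alpha globin and Cdh5 5 each in 130 kb, Etv2 4 in 60 kb, beta globin 4 in 170 kb and Kdr 1 in 200 kb. That is 0.5 regions per 100 kb at Kdr and 7.27 at Tal1, against 1.1 over the autosomes. Member regions spanned 227 to 1866 bp (median 702 bp, against 874 bp over all regions). Their density of counts per kb lay above the median of all regions at 19 of 27, whereas the Kdr region, 1678 bp wide, stood at percentile 12.6. The windows also hold other genes. In RefSeq gene order Stil precedes and Pdzk1ip1 follows Tal1, Cox6b1 and Rbm42 flank Etv2, Nprl3 and Hba-x precede Hba-a1, and olfactory receptor genes flank the beta globin genes. A region is therefore named by its locus and position, not assigned to a gene.

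At none of the 27 regions did accessibility pass the test between the genotypes (edgeR quasi-likelihood, Benjamini-Hochberg over all regions, smallest adjusted p = 0.802). Over all 26620 regions the same rule called 0.0188%, and a count of 0 of 27 is near that background. At an unadjusted p under 0.05 stood 3 of the 27 regions (DESeq2 and limma voom each gave 3 as well), against 6.06% of all regions. The 3 were lower in Sd/Sd, a direction with a background of 3.09%, and 0 of 27 were higher, against 2.98%. They were 2 alpha globin regions and 1 Tal1 region. The fitted change was below 0 at 17 of 27 regions and at 49.9% of all regions, and the median log2 fold change was -0.05 against 0.00057 over all regions. For 26 of the 27 the 95% interval of the change lay within 2-fold in either direction, and for 16 within 1.5-fold.

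**Figure D1:**
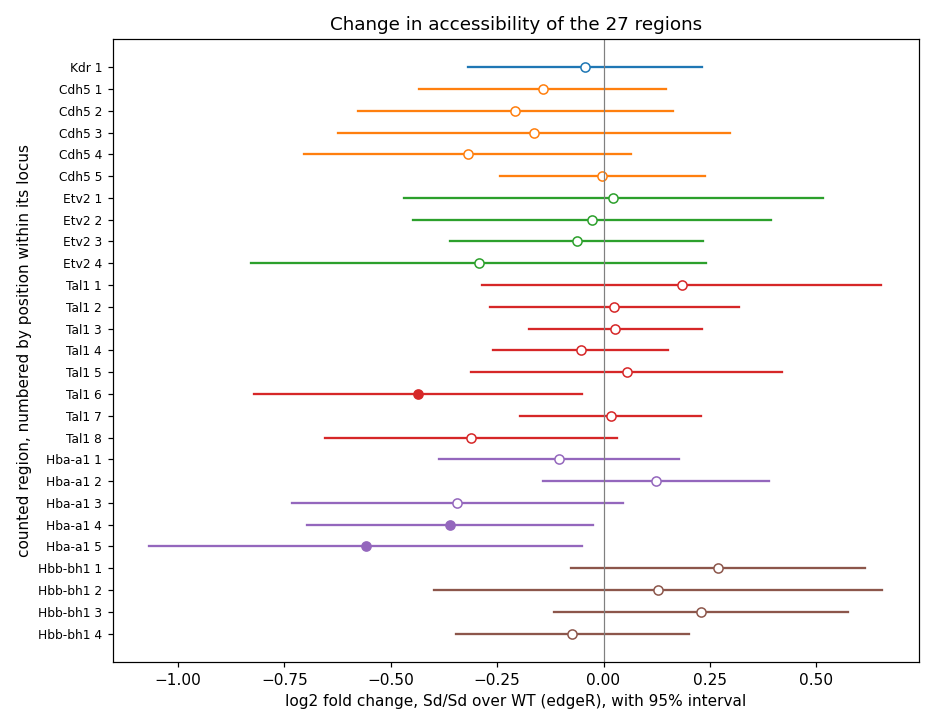
Log2 fold change of accessibility, Sd/Sd over WT, at each of the 27 counted regions, numbered by position within the locus. Lines are 95% intervals of the edgeR fit, and filled points are the 3 regions with an unadjusted p under 0.05, all of them below 0.

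The factors that specify blood and vessels showed no difference past the test in summed level. Etv2 had summed levels over its 4 regions of 69.3, 80.8, 72.7 and 66.8 CPM in WT and 78.9, 67, 71.2 and 56.9 CPM in Sd/Sd. The genotypes overlapped, and the lowest value was that of Sd/Sd replicate 4. The mean was 72.4 ± 6.12 CPM in WT and 68.5 ± 9.15 CPM in Sd/Sd (SD, n = 4 each). Their ratio of 0.946 lay within the spread between libraries (two-sided exact permutation test over 70 arrangements, p = 0.514). Ratios from 0.705 to 1.18 were not rejected by that test. Its strongest region, from 31434817 to 31435518, had a peak in all 8 libraries and 32.37 ± 4.17 CPM in WT against 30.9 ± 4.20 CPM in Sd/Sd. The region of smallest p in this window, from 31449852 to 31450157, crosses the window's edge and rested on 18 to 48 counts per library (log2 fold change -0.29, SE 0.27, edgeR adjusted p = 0.932). With 1 library left out that fold change ran from -0.50 (Sd/Sd replicate 1) to -0.13 (Sd/Sd replicate 2).

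Tal1, the factor needed for all blood lineages, had the highest summed level of the 6 loci, spread over its 8 regions. It was 311, 366, 317 and 331 CPM in WT and 327, 336.5, 305.5 and 319 CPM in Sd/Sd. The ranges overlapped, with WT replicate 2 above every Sd/Sd library and Sd/Sd replicate 3 below every WT library. The means of 331.5 ± 24.6 and 322 ± 13.1 CPM gave a ratio of 0.971 (exact permutation test, two-sided, p = 0.6, ratios from 0.835 to 1.08 not rejected). The strongest region, from 114728946 to 114730371, had 73.1 ± 8.24 CPM in WT and 74.3 ± 11.2 CPM in Sd/Sd and a peak in all 8 libraries. One region of the 8 had an unadjusted p under 0.05 in edgeR.

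That region, from 114757999 to 114758524, had 16.5, 25.2, 21.6 and 25.8 CPM in WT and 16.7, 19.1, 16.9 and 13.2 CPM in Sd/Sd. WT replicate 1 lay within the Sd/Sd values and the other 3 WT libraries above all of them. Means of 22.3 ± 4.25 and 16.5 ± 2.45 CPM did not differ past the test (log2 fold change -0.44, SE 0.20, edgeR unadjusted p = 0.0265, adjusted p = 0.802). The authors' peak calls, made in each library alone, placed a peak there in 3 of 4 WT and 0 of 4 Sd/Sd libraries. With WT replicate 4 left out the log2 fold change was -0.35, and with Sd/Sd replicate 4 left out it was -0.34. In these fits the edgeR unadjusted p was 0.105 and 0.0991, and the adjusted p 0.787 and 0.9998. At the other end, without WT replicate 1 the log2 fold change was -0.56 (edgeR unadjusted p = 0.00714, adjusted p = 0.7335).

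Of the vessel loci, Kdr was represented by a single region, from 76373749 to 76375426. Its level was 31.3, 43.4, 41.4 and 37.2 CPM in WT and 40.8, 36.6, 33.2 and 36.8 CPM in Sd/Sd. The Sd/Sd libraries lay inside the WT range. Means of 38.3 ± 5.35 and 36.9 ± 3.13 CPM differed by a log2 fold change of -0.04 (SE 0.14, 95% interval -0.32 to 0.23, edgeR adjusted p = 0.994). For the same values the exact permutation test gave p = 0.629 (two-sided) and did not reject ratios from 0.766 to 1.30. A peak was called in all 8 libraries, with a fold enrichment over local background of 2.96 to 4.38 in WT libraries and 2.81 to 3.82 in Sd/Sd libraries, as the authors' peak caller gave it.

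At Cdh5 the Sd/Sd mean was below the WT mean at every region, and the difference of the sums did not pass the test. Its 5 regions had sums of 138, 141, 143 and 145 CPM in WT and 123, 124, 139 and 130.1 CPM in Sd/Sd. The WT libraries lay within a narrow band, and 3 of the 4 Sd/Sd libraries lay below it, while replicate 3 lay inside. Means of 142 ± 2.94 and 129 ± 7.59 CPM gave a ratio of 0.91 that did not pass the test (exact permutation test, two-sided, p = 0.0571, smallest possible 0.0286, ratios from 0.85 to 1.01 not rejected). Without Sd/Sd replicate 3 the log2 ratio was -0.17 and p = 0.0286 (exact permutation test), the smallest that 4 against 3 libraries can give. In the window narrowed by 10 kb on each side, which drops the outermost region at either end, the log2 ratio moved from -0.14 to -0.24 (exact permutation p = 0.143). The fitted change was below 0 at 5 of its 5 regions, with log2 fold changes from -0.32 to -0.0031, and none had an unadjusted p under 0.05.

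The region of smallest p at Cdh5, from 106670102 to 106670889, had 20.6, 17.5, 25.4 and 22.2 CPM in WT and 14.2, 14.6, 20.8 and 18.7 CPM in Sd/Sd. Those ranges overlapped, with 2 Sd/Sd libraries below every WT library (log2 fold change -0.32, SE 0.20, edgeR adjusted p = 0.874). The strongest region of the window, from 106693876 to 106695213, was at 49 ± 4.02 CPM in WT and 48.7 ± 3.82 CPM in Sd/Sd, and its 95% interval allowed changes of 0.844-fold to 1.18-fold.

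**Figure D2:**
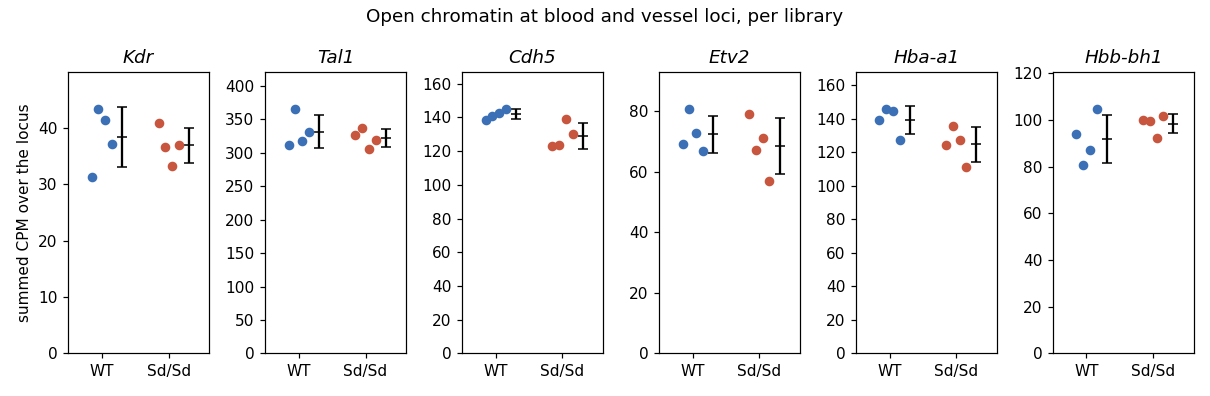
Summed CPM over the counted regions of each locus, by genotype. Each point is a library and the bar beside it the mean with SD (n = 4). The genotypes overlap at all 6 loci, and Sd/Sd means are lower at 5 and higher at the beta globin locus, none past the exact permutation test.

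At the globin clusters, whose products fill red cells, the Sd/Sd mean was below that of WT for alpha globin and above it for beta globin, and neither difference passed the test. The alpha globin locus had sums of 139, 146, 144 and 127 CPM in WT and 124, 136, 127 and 111 CPM in Sd/Sd. WT replicate 4 lay among the Sd/Sd libraries, and the other 3 WT libraries lay above all of them. Means of 139 ± 8.57 and 125 ± 10.3 CPM gave a ratio of 0.896 that did not pass the test (two-sided exact permutation test, p = 0.0857, ratios from 0.761 to 1.07 not rejected). With each region given equal weight, as the mean log2 level over the 5 regions, the difference was -0.23 and passed (exact permutation p = 0.0286). Equal weight lets a region of few counts, such as that from 32186816 to 32187149, count as much as the strongest. When regions averaging fewer than 50 counts were dropped, that one among them, the log2 ratio of the sums was -0.12 (exact permutation p = 0.257). With the 10 kb at each edge of the window left out the log2 ratio was -0.18 (exact permutation p = 0.257).

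Fitted log2 fold changes of -0.34 or below were found at 3 of the 5 alpha globin regions, 1 of which depended on WT replicate 2. The region from 32186816 to 32187149 had 13.9, 12.6, 13.6 and 14.6 CPM in WT and 9.17, 7.77, 11.5 and 8.61 CPM in Sd/Sd. Every WT library exceeded every Sd/Sd library there, at 24 to 50 counts a library. The fitted log2 fold change was -0.56 (SE 0.26, 95% interval -1.07 to -0.05), with an unadjusted p = 0.0313 and an adjusted p = 0.802 in edgeR. A peak was called in 3 of 4 WT and 1 of 4 Sd/Sd libraries.

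The region from 32167191 to 32167827 had 26.7, 29.5, 29.2 and 24.9 CPM in WT and 21.9, 21.7, 21.4 and 20.3 CPM in Sd/Sd. Here too the genotypes did not overlap, and the Sd/Sd libraries lay close together. The log2 fold change was -0.36 (SE 0.17, 95% interval -0.70 to -0.02, edgeR adjusted p = 0.802). A peak was called in all 8 libraries, at a fold enrichment of 3.75 to 4.98 in WT libraries and 3.04 to 4.61 in Sd/Sd libraries. Separation of the libraries by genotype was found at 2 of the 27 regions, both of them in this locus, and at 3.2% of all regions. With any 1 library left out, the unadjusted edgeR p reached at most 0.0739 at the first of these regions and 0.0794 at the second.

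The third region, from 32126314 to 32126858, had a log2 fold change of -0.34 (edgeR adjusted p = 0.859), and WT replicate 2 was at 33.8 CPM there against 15.9 to 19.1 CPM in the other WT libraries. Without that library the log2 fold change was -0.05 (this region was named after its values were seen). The strongest region of the locus, from 32120755 to 32122392, had a fitted change above 0, at 39.1 ± 6.46 CPM in WT and 42.4 ± 4.09 CPM in Sd/Sd (log2 fold change 0.12, SE 0.14, edgeR adjusted p = 0.948).

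At the beta globin locus the sums were 93.9, 80.8, 87 and 105 CPM in WT and 99.98, 99.7, 92.3 and 102 CPM in Sd/Sd. All Sd/Sd libraries lay above the WT mean, within the WT range. Means of 91.6 ± 10.3 and 98.4 ± 4.17 CPM gave a ratio of 1.07 (exact permutation test, two-sided, p = 0.257, ratios from 0.883 to 1.26 not rejected). The strongest region, from 111061191 to 111061921, had a peak in all 8 libraries and 38.8 ± 6.43 CPM in WT against 36.8 ± 2.84 CPM in Sd/Sd. The region of smallest p, from 110955369 to 110956207, had 21.7, 17.5, 20.5 and 24.9 CPM in WT and 25.3, 28.1, 23.2 and 25.4 CPM in Sd/Sd, overlapping in WT replicate 4 (log2 fold change 0.27, SE 0.18, edgeR adjusted p = 0.876). The strongest region lies within 10 kb of the window's edge. In a window narrowed by 10 kb on each side, which drops it, the log2 ratio was 0.22. The unadjusted exact permutation p was then 0.0286, the smallest possible.

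The ratio of beta to alpha globin levels within a library was 0.664 ± 0.118 in WT and 0.794 ± 0.0883 in Sd/Sd (SD, n = 4 each). This difference did not pass the test (p = 0.143 by a two-sided exact permutation test). Over the 8 libraries the summed levels gave Pearson's r = -0.753 (p = 0.0296 by exact permutation, 0.0591 after adjustment for the 2 relations tested) and Spearman's rho = -0.857 (exact permutation p = 0.0107, adjusted 0.0214). Without the 2 libraries farthest from the median alpha globin level, WT replicate 2 and Sd/Sd replicate 4, r was -0.666 (exact permutation p = 0.154) over 6 libraries. Within WT r was -0.975 and within Sd/Sd -0.362, each over 4 libraries, too few for a test. The values over 8 libraries pool both genotypes, and the permutation did not hold genotype fixed. The part of the genotype means in them was not tested. The second relation, between the vessel genes Kdr and Cdh5, had r = -0.01 (exact permutation p = 0.978, adjusted 0.978) and rho = 0.31 (exact permutation p = 0.462, adjusted 0.462). Without WT replicates 1 and 2 that r was -0.115 (exact permutation p = 0.826). Within WT it was 0.429 and within Sd/Sd -0.845, again over 4 libraries each.

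**Figure D3:**
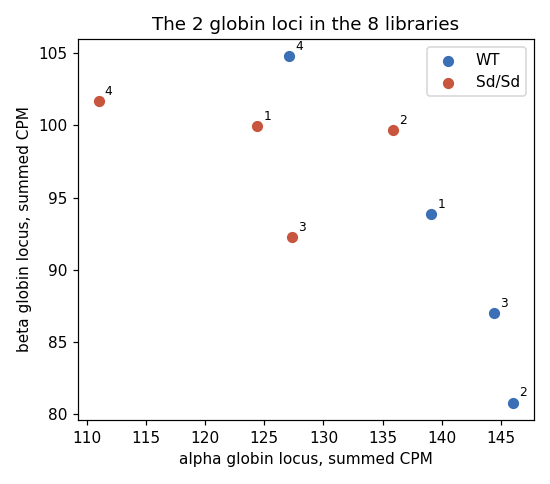
Summed CPM of the beta globin locus against that of the alpha globin locus, 1 point per library, numbered by replicate. WT replicates 1 to 3 lie at the lower right, from 139 to 146 CPM for alpha and 80.8 to 93.9 CPM for beta globin. WT replicate 4 lies among the Sd/Sd libraries for alpha globin (127 CPM) and above all of them for beta globin (105 CPM).

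The members had nearly the same number of peak calls in both genotypes, while peaks as a whole were more frequent in Sd/Sd. Over the 27 regions and 4 libraries, 108 pairs per genotype, a peak was called in 78 WT pairs (72.2%) and 79 Sd/Sd pairs (73.1%). Over all 26620 counted regions the same shares were 68.2% and 75.2%, and single libraries had 18682 to 24664 peaks in all in WT against 21306 to 30387 in Sd/Sd. The part of this background in the members' counts was not tested. Single libraries had a peak at 17 to 22 of the 27 regions in WT and at 17 to 21 in Sd/Sd. A peak in all 8 libraries was found at 12 regions, which included the Kdr region, the strongest region of each other locus except alpha globin and 3 of the 5 Cdh5 regions. More Sd/Sd than WT libraries had one at 7 regions, fewer at 6 and as many at 14. A pair of beta globin regions, starting at 111009510 and 111058629, had a peak in 0 of 4 WT and 2 of 4 Sd/Sd libraries. Their levels in WT were 10.3 and 21.4 CPM, against 11.2 and 24.9 CPM in Sd/Sd.

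**Figure D4:**
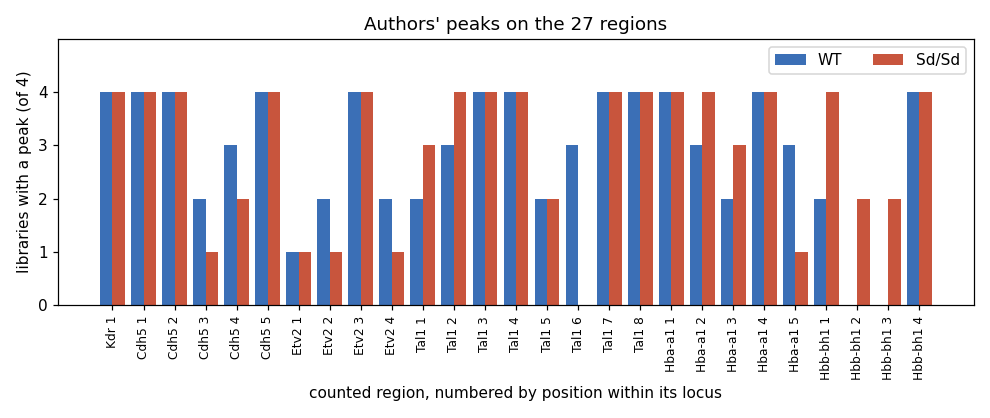
Number of libraries, of 4 per genotype, in which the authors called a broad peak overlapping each of the 27 regions, numbered by position within the locus. All 8 libraries have a peak at 12 regions, and Tal1 region 6 is called in 3 WT and 0 Sd/Sd libraries.

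The spread between libraries was close to that of other regions. The median coefficient of variation over the 27 regions was 15.3% in WT and 14.3% in Sd/Sd, against 14% in each genotype over all regions.

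A further list of 12 genes of the same cells held blood and progenitor factors (Gata2, Runx1, Lmo2, Spi1, Gfi1b, Klf1), surface proteins of progenitors and vessels (Tek, Flt1, Kit, Cd34) and the endothelial genes Fli1 and Pecam1. Regions were found at 10 of them, 21 in all, and the windows of Fli1 and Pecam1 held 0. Of the 21 regions, 0 passed (smallest adjusted p = 0.619, edgeR, and 0 with DESeq2 and limma voom), against 0.0188% of all regions. Against 6.06% of all regions, 2 of the 21 (9.52%) had an unadjusted p under 0.05, in opposite directions. Named after their values were seen, these were a region of Spi1, a factor of myeloid cells, and a region of Tek, the angiopoietin receptor of endothelium. At Spi1, from 90955169 to 90955780 of chromosome 2, the level was 31.9, 31.5, 32.36 and 22.2 CPM in WT and 23.9, 21.4, 19 and 18.7 CPM in Sd/Sd. WT replicate 4 lay among the Sd/Sd libraries (log2 fold change -0.50, SE 0.17, edgeR adjusted p = 0.619). At Tek, from 94419180 to 94419516 of chromosome 4, the level was 4.93, 8.28, 9.74 and 9.96 CPM in WT and 8.89, 17.1, 12.4 and 17 CPM in Sd/Sd. Sd/Sd replicate 1 lay among the WT libraries there (log2 fold change 0.76, SE 0.27, edgeR adjusted p = 0.678).

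The median log2 fold change over the 21 regions was -0.05, with 14 (66.7%) below 0, against 49.9% of all regions. At the 4 tailbud genes the median was -0.14, with 7 of 10 regions below 0. Among the further genes, the log2 ratio by summed level ran from -0.24 at Flt1 to 0.07 at Gfi1b. Flt1 is a further receptor of vascular endothelial growth factor, and Gfi1b a transcriptional repressor needed in erythroid cells. Over the 8 libraries, the loci whose levels ran most like those of alpha globin, of 15 compared, were Spi1 (r = 0.778) and Etv2 (r = 0.628). Those most like Kdr were Tal1 (r = 0.691) and Gfi1b (r = 0.533). All these values share the libraries and their totals and are given as a description.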

How the data were processed

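Groups came from the labels. Per the submitters' processing notes the build was mm9 and the tools included BWA 0.7.15-r1140, MACS2 2.1.1.20160309 and bedtools 2.26.0. Settings, and any Tn5 shift of reads, were not given in these notes. The authors deposited whole-number counts per region, not normalized, over the same list of 26620 autosomal regions for every library. Broad peaks were deposited per library by the authors, with the peak caller's score, fold enrichment (a ratio), −log10 p-value and −log10 q-value. A count is not stated to be a read, fragment or cut.

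Regions overlapping the windows were taken as members. CPM is the count over the library's total over all regions, so it depends on the share of a library in peaks. edgeR 4.0.16 in R 4.3.3 (quasi-likelihood, robust variance, TMM, two-sided) was fitted to all regions with genotype as the only term, and filterByExpr removed 0 regions. The fit was tested on simulated data. Levels summed per locus were compared by exact permutation tests, unadjusted, over 6 loci in Python 3.11.15 with SciPy 1.17.1, and ratios not rejected at 0.05 are given as the interval. P-values rest on how far these libraries vary, which may be technical. The beta to alpha globin ratio was added after seeing the data.

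The text names, per locus, the regions of highest level, of smallest p and of p under 0.05. The alternatives were DESeq2 1.42.0, limma 3.58.1, other scalings, filters, windows and peak thresholds, a replicate block and leaving out libraries. Members and lists were chosen with earlier results of these data known.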

Additional observations from a re-analysis of the deposited data

How the results depend on the processing

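At the 6 loci and at the 12 further genes, 0 regions passed under every alternative run. The number of regions at the 6 loci with an unadjusted p under 0.05 (edgeR) ran from 0 (Sd/Sd replicate 4 left out) to 3, and was 1 with WT replicate 2 left out. Over all regions 5 were called, against 3 with DESeq2, 10 with limma voom, 15 with edgeR without robust variance (added after seeing the data), 23 with a replicate block and 2 to 19 with 1 library left out (2 without Sd/Sd replicate 2, 19 without WT replicate 1).

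Deviations of same-numbered libraries were at most weakly correlated (r from -0.00133 to 0.0899). WT replicates 1, 2 and 3 each correlated best with an Sd/Sd library of another number. WT replicate 4 correlated best with Sd/Sd replicate 4 (r = 0.0899). The block changed no other call. For the summed levels the block, an exact sign-flip test over 4 pairs, cannot go below 0.125.

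Under 1 alternative each, some log2 ratios reached the smallest possible exact permutation p, 0.0286, unadjusted for loci or alternatives. These were alpha globin with equal weight per region (-0.2335), beta globin in the narrowed window (0.2218) and Cdh5 without Sd/Sd replicate 3. Under the 12 other alternatives at each of these loci the exact p was above 0.05. With 1 library left out the log2 ratios ran from -0.175 to -0.114 at Cdh5, -0.203 to -0.107 at alpha globin, 0.0472 to 0.174 at beta globin, -0.142 to 0.00874 at Kdr, -0.0712 to 0.00923 at Tal1 and -0.154 to -0.000725 at Etv2. Pearson's r of the globin loci ran from -0.814 to -0.661 with 1 library left out. Its unadjusted exact permutation p was 0.0296 with all 8 libraries. That p rose above 0.05 without WT replicate 2, WT replicate 3 or Sd/Sd replicate 1, alternatives added after seeing the data. Adjusted for the 2 relations tested, the exact permutation p with all libraries was 0.0591, which is above 0.05 and did not pass. Peaks of q at most 1e-05 left 19 WT and 23 Sd/Sd pairs, and an overlap of at least 0.5 of the region left 51 and 49. The cause of these shifts was not tested. At this depth the 95% interval lay within 1.5-fold at 16 of the 27 regions, and changes of 1.5-fold or less at single regions could go undetected.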

Other observations

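Peaks that met no counted region lay mostly in the beta globin window. It held 3 such peaks over the 4 WT libraries and 8 over the 4 Sd/Sd libraries, against 0 or 1 per genotype at each of the other 5 loci. Each library had 1 to 4 peaks in that window in WT and 4 to 7 in Sd/Sd, with fold enrichments from 2.51 to 5.06, as the authors' peak caller gave them. The library with 7, Sd/Sd replicate 4, also had the most peaks genome-wide, 30387, and those with 1, WT replicates 2 and 3, had the fewest, 20316 and 18682. The part of depth in this difference was not tested.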
